A study of Mus musculus with 4 samples.

Results

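The nuclei described here carry number 9 among the 14 clusters that the authors deposited as classes of a single-nucleus ATAC-seq study of mouse mammary epithelium. ATAC-seq tags open chromatin with the Tn5 transposase, so the reads of a nucleus pile up where its DNA is accessible. All nuclei with class 9 in the authors' table were taken from the 2 fetal libraries, which gave 385 nuclei in fetal library 1 and 652 in fetal library 2. These 1037 nuclei were chosen from 2577 fetal nuclei and from 7846 nuclei in all. A further 19 nuclei of class 9 came from the adult libraries and were left out of the class 9 levels, shares and scores below; the Cicero scores are over all nuclei, and the values of these 19 are given apart at the end. The source was wild-type mammary gland of CD1 mice, an outbred stock, with no engineered allele or treatment in any group. Fetal cells came from embryonic day 18 and adult cells from mice of 8 weeks, with 2 libraries at each stage that the labels call biological replicates. At both stages the cells had been sorted as EpCAM+ and Lin-, that is, as epithelial cells without surface markers of blood and vessel lineages. How many animals were pooled is not given in the sources used here.

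Class 9 was the most frequent class of the fetal libraries. It held 43.65% of the nuclei of fetal library 1 (95% exact binomial interval 40.35% to 47.0%) and 38.47% of those of fetal library 2 (36.14% to 40.83%). The mean share was 41.1% ± 3.67 (SD, n = 2). Class 5 followed with 22.79% and 19.88%, class 4 with 14.97% and 19.94%, and class 12 with 10.43% and 14.57%, in the order of the libraries. The next classes, 13 and 6, each held under 5% of either library. Nuclei of class 9 had a median of 5807 reads in fetal library 1 and 8382 reads in fetal library 2. The medians of class 5 were lower, at 4566 and 6707 reads. Those of class 4, at 6224 and 7082 reads, and of class 12, at 5818 and 7110 reads, were above class 9 in fetal library 1 and below it in fetal library 2. Promoter regions took a median of 24.71% and 23.2% of the reads of a class 9 nucleus and distal regions 41.85% and 42.27%, so that the libraries were alike in this respect. The 4 libraries of the series held 6028168 to 19304830 reads in kept nuclei and shared 0 barcodes with each other. Intervals cover counting error only.

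The mammary epithelium consists of luminal cells, which face the lumen of the ducts and make milk, and of basal cells, which lie outside them and contract. Luminal cells are known for the simple keratins 7, 8, 18 and 19, and basal cells for keratins 5 and 14, smooth muscle proteins and the transcription factor p63. Before birth the gland is a small branched rudiment whose cells share features of both layers. SOX10 and SOX11 are transcription factors known from fetal mammary cells, and SOX10 also from luminal progenitors of the adult. WFDC18 is a secreted whey acidic protein family member, CSN3 is kappa casein of milk, and TMPRSS5 is a membrane-anchored serine protease. These 5 genes were given as the markers of class 9.

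The promoters of 6 genes carry the contrast on which the results turn, and their sequences are shown here for that reason. Tmprss5 and Sox11 are markers whose promoters were open in class 9 and in other fetal classes. The promoters of Wfdc18, also a marker, and of the 3 keratin genes had fewer reads in some of the other fetal classes. Each run is the 250 bases before the RefSeq start in GRCm38.p6, 5′ to 3′ on the strand of the gene. Of the 2 starts listed for Tmprss5, the one used lies inside the gene span. Capitals mark matches, on either strand, to letters searched for SOX factors (ACAAAG or ACAATG), nuclear factor I (TTGGC and GCCAA with 5 bases of any kind between them), AP-1 (TGANTCA), ETS factors (GGAAGT), forkhead factors (TGTTTAC), the CCAAT box (CCAAT) and the TATA box (TATAAA).
Tmprss5, chr9:49102478-49102727, plus strand: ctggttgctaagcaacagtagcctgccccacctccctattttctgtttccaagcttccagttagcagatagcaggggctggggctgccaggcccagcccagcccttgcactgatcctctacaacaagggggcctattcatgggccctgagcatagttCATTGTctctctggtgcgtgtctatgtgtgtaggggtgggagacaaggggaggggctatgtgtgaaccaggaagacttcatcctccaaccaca
Sox11, chr12:27342719-27342968, minus strand: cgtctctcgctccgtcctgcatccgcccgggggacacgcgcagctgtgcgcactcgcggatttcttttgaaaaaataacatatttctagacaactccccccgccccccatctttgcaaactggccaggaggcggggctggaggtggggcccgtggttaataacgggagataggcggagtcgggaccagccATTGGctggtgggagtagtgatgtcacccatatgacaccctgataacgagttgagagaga
Wfdc18, chr11:83708754-83709003, plus strand: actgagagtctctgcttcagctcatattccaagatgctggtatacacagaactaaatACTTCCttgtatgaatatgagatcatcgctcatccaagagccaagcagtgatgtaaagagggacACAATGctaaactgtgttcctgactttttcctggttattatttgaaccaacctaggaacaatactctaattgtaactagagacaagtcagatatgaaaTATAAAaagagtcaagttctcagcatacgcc
Krt7, chr15:101412153-101412402, plus strand: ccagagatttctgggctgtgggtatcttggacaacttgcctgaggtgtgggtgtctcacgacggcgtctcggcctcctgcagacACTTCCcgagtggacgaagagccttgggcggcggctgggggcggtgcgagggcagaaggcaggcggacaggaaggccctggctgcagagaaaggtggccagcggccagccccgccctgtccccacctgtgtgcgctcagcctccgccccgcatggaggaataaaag
Krt8, chr15:102004343-102004592, minus strand: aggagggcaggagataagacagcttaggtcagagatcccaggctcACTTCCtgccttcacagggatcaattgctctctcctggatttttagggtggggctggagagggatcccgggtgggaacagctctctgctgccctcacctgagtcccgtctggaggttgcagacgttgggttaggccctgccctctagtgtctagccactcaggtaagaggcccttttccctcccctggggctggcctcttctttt
Krt18, chr15:102027966-102028215, plus strand: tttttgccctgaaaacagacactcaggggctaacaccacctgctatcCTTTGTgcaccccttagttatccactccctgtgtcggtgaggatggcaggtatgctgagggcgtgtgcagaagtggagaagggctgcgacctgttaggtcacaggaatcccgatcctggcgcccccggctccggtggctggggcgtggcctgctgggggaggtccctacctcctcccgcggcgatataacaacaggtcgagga
The Tmprss5, Wfdc18 and Krt18 runs held 1 SOX match each, and such a match was present in 25.2% of the 32851 windows of this kind. The Wfdc18, Krt7 and Krt8 runs held 1 ETS match each (19.7% of windows). The Wfdc18 run also held a TATA box (12.4% of windows), and the Sox11 run held a CCAAT box (33.8% of windows). None of the 6 runs held an AP-1 match (6.75% of windows), a forkhead match (3.17%) or an NFI match (0.0365%), and no match overlapped another. A match of letters is a description of the sequence and no evidence of binding.

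Reads over these promoters were counted in the window from 250 bases before to 50 bases after the start and given as CPM, that is, scaled to a total of 1000000 reads of the nuclei. At Tmprss5 the level was 16.2 CPM in fetal library 1 and 16.1 CPM in fetal library 2 of class 9, from 46 and 107 reads. It was 16.1 CPM in class 5, 15.8 CPM in class 4 and 26.4 CPM in class 12, and 0.5 CPM or less in 8 of the other 10 classes. At Sox11 it was 12.3 and 12.5 CPM in class 9, with 13.8, 12.9 and 17.8 CPM in classes 5, 4 and 12 and 15.4 CPM in class 6. At Wfdc18 it was 24.7 and 17.3 CPM in class 9, 19.6, 8.5 and 10.7 CPM in classes 5, 4 and 12, and 17.7 and 21.2 CPM in classes 3 and 7, which are mostly adult. At Krt7 it was 6.3 and 2.9 CPM in class 9, 2.3 CPM in class 5, 0.2 CPM in class 4 and 0.4 CPM in class 12. At Krt18 it was 8.8 and 6.9 CPM in class 9 and 6.1 CPM in class 5, but 3.2 CPM in class 4 and 1.1 CPM in class 12. At Krt8 it was 21.9 and 20.3 CPM in class 9 and 18.1, 12.1 and 10.3 CPM in classes 5, 4 and 12. The mostly adult classes reached 11.9 CPM at Krt7 and 11.1 CPM at Krt18, both in class 7, and 34.0 CPM at Krt8, in class 2. The Tmprss5 and Sox11 promoters thus had similar levels in classes 9, 5 and 4 and a higher one in class 12, whereas the Wfdc18, Krt7, Krt8 and Krt18 promoters had fewer reads in classes 4 and 12. The Krt7 window rests on 18 and 19 reads of class 9. Fewer open copies per nucleus and fewer nuclei with an open copy cannot be told apart in such sums.

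To compare class 9 over all genes, reads were counted over each gene with 2000 bases on either side, scaled to CPM over all gene spans, and turned into log2(CPM + 2). Each fetal library of class 9 was set against the mean of the log2 levels of the 13 other classes. A span counts as higher or lower when the difference is at least 2-fold in the same direction in both libraries. The classes were formed by the authors from reads of these same nuclei, so class 9 against other classes is a description, and no test was made of it. Most of the 13 other classes held mainly adult nuclei, which came from other libraries. Setting class 9 against their mean is thus largely a comparison of fetal with adult nuclei. Stage and library cannot be separated in it, and their parts were not tested. The same holds for the regions and motifs set against all other classes below. Spans of neighbouring genes overlap and then share reads, as those of Tmprss5 with Zw10, Sox10 with Polr2f, and Krt8 with Krt78.

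All 5 markers were higher in class 9 than in the mean of the other classes. They were given with the class, and lists were chosen with earlier results of these data known, so this is no independent support. Across all genes 43 of 16729 spans were higher (0.257%) and 16 were lower (0.0956%). With the other classes summed to 1 level the balance turned, to 10 higher and 57 lower, and without fetal library 2 it was 172 higher and 227 lower. The Tmprss5 span (chr9:49079274-49117591) had 37.0 CPM in fetal library 1 and 45.1 CPM in fetal library 2. Its log2 difference of 2.10 ± 0.19 (SD, n = 2) was the largest of any span that met the rule. The Sox11 span (chr12:27334268-27342718) had 71.6 and 88.4 CPM, a log2 difference of 1.84 ± 0.21. For Wfdc18 (chr11:83709004-83711360) the levels were 53.9 and 32.1 CPM and the log2 difference was 1.85 ± 0.50. For Csn3 (chr5:87925579-87932550) they were 34.2 and 61.7 CPM, with a log2 difference of 1.52 ± 0.58. For Sox10 (chr15:79154913-79164490) they were 99.9 and 109 CPM, with a log2 difference of 1.35 ± 0.08. The libraries differed most for Wfdc18 and Csn3, in opposite directions. With all nuclei of the other classes summed to 1 level, the log2 difference was 0.87 for Sox10 and 0.88 for Csn3, below the 2-fold threshold.

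None of the 5 markers met the 2-fold rule against the other frequent fetal classes. Against the mean of classes 4, 5 and 12 of the same library, 0 of the 5 were higher and 0 were lower, where 25 of 16698 spans were higher (0.15%) and 12 were lower (0.0719%). Sox11 had 92.4 and 64.5 CPM in class 5, 62.4 and 71.6 CPM in class 4, and 116 and 66.7 CPM in class 12, in the order of the fetal libraries, so that classes 5 and 12 overlap class 9 and class 4 reaches up to its lower value. Tmprss5 was highest in class 12, at 66.5 and 66.7 CPM, above both class 9 values. Csn3 was highest in class 5, at 68.7 and 77.5 CPM. Sox10 was also open in the mostly adult classes 3 and 7, at 89.9 and 103 CPM, and Wfdc18 at 43.8 and 41.0 CPM. Wfdc18 had 32.7 and 37.6 CPM in class 5, which overlaps class 9, but 19.9 and 19.6 CPM in class 4 and 22.9 and 18.7 CPM in class 12, below both class 9 values. Sox11, Sox10, Tmprss5 and Csn3 thus had comparable reads in at least 1 other fetal class, as Wfdc18 had in class 5, and Wfdc18 was lower in classes 4 and 12 without reaching 2-fold in both libraries. The data thus do not bear out a name from these 5 genes alone, and the nuclei are called class 9 here.

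In single nuclei the markers were thin. After each nucleus was reduced at random to 2000 reads, 71.4% of class 9 nuclei in fetal library 1 and 66.7% in fetal library 2 had no read over any of the 5 marker spans. The shares were 69.2% and 69.4% in class 5, 82.6% and 74.9% in class 4, and 65.2% and 72.9% in class 12, so that class 4 had more such nuclei than class 9 in both libraries. A Wfdc18 read was found in 8.83% and 3.83% of thinned class 9 nuclei, 3.98% and 3.26% of those of class 5, 0.758% and 1.78% of class 4, and 2.17% and 0.81% of class 12, so that classes 9 and 5 were close in fetal library 2. A Sox10 read was found in 7.53% (95% exact interval 5.10% to 10.6%) and 11.8% (9.43% to 14.5%) of thinned class 9 nuclei, where all reads gave 21.6% and 28.5%. The thinned Sox10 shares were 9.453% and 9.199% in class 5, 9.091% and 8.58% in class 4, and 13.04% and 10.53% in class 12. Class 9 was thus below these classes in fetal library 1 and above them in fetal library 2. A read over Ptprc, a gene of blood cells, was found in 0.779% and 1.84% of the thinned class 9 nuclei.

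**Figure D1:**
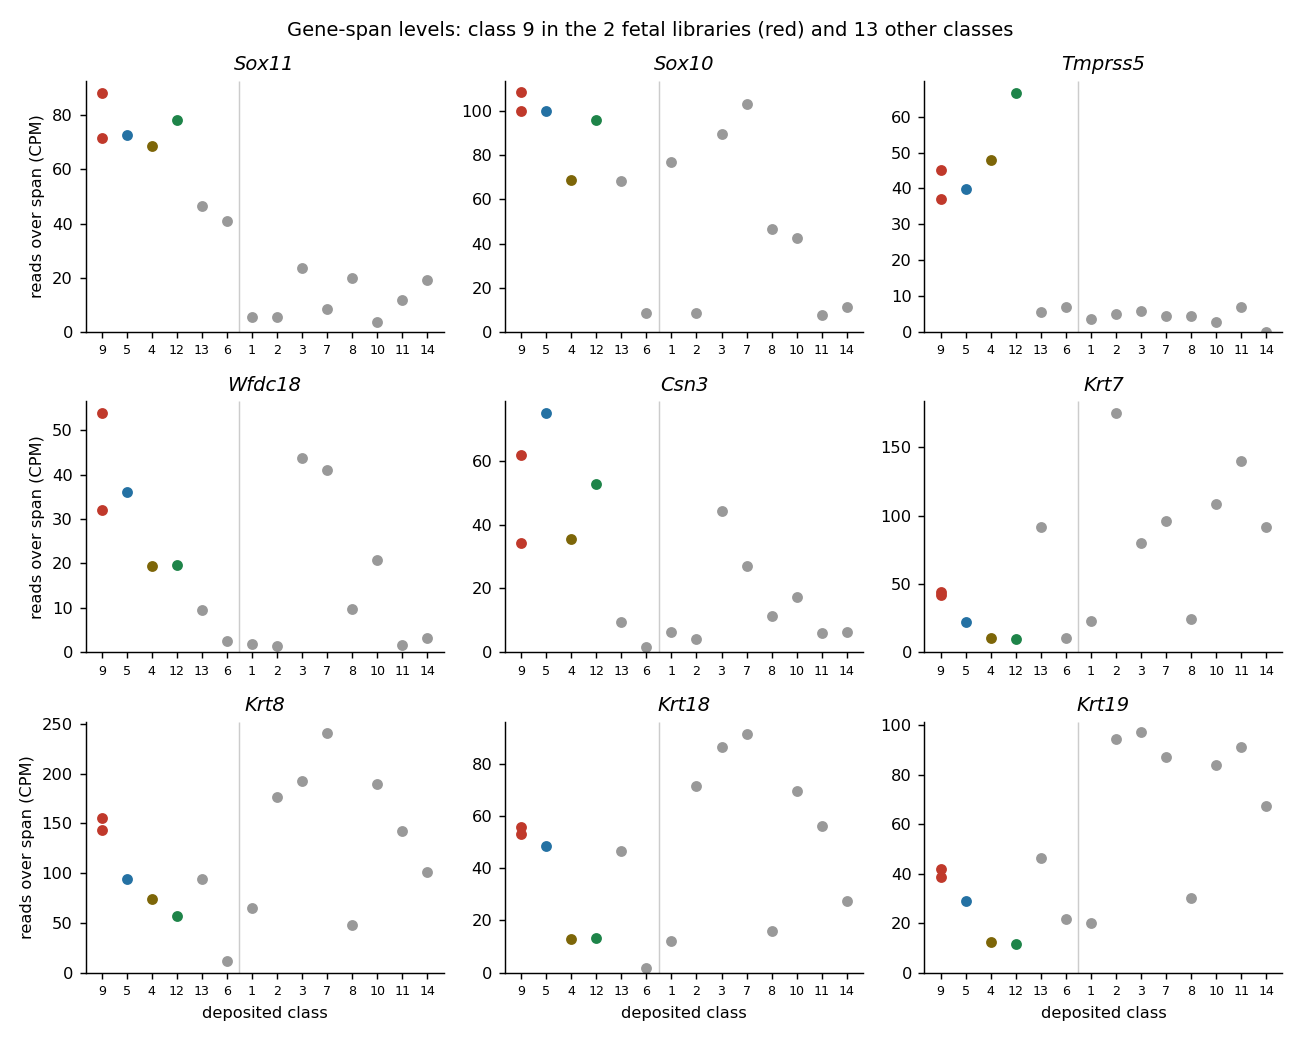
Reads over 9 gene spans in CPM (y axis, from 0) by deposited class (x axis), with the 2 fetal libraries of class 9 as red points, classes 5 (blue), 4 (brown) and 12 (green) in colour and a grey line after the last class with at least 20 nuclei in each fetal library. Sox11 and Tmprss5 are high in classes 9, 5, 4 and 12 alike, with Tmprss5 highest in class 12, whereas the 4 keratins are lower in classes 4 and 12 than in class 9.

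Among the other spans that were higher than in the mean of all other classes, Thbs1, which codes for the matrix protein thrombospondin 1, had 495 and 545 CPM in class 9, against 456 CPM in class 4, the next class. Adra2c, an adrenergic receptor gene, had 28.8 and 22.1 CPM against 18.7 CPM in class 12. Prrg3, which codes for a membrane protein with a Gla domain, had 26.0 and 36.5 CPM against 25.4 CPM in class 12. Cldn9, a tight junction claudin gene whose span overlaps that of Cldn6, had 67.5 and 51.7 CPM against 49.0 CPM in class 5. Igf2bp1, which codes for a fetal RNA-binding protein, had 95.4 and 70.1 CPM against 63.8 CPM in class 5. In each of these 5 genes class 9 held the highest mean of the 14 classes, but the nearest class was fetal and, in Prrg3 and Cldn9, its level was close to the lower library of class 9. Lyg1, 1700034J05Rik and Atp6v1b1 completed the 12 with the largest differences, and in these 3 another class was higher than class 9. Of all 43, class 9 had the highest level in 16, and in 33 the highest other class was 4, 5, 12 or 13. In most of the 43 spans, then, another fetal class came closest or was higher, though the share over all spans is not given here.

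Of the 16 lower spans, 8 met the read rule for naming. Casp12 and Casp1, caspase genes of inflammation, had 6.39 and 8.42 CPM and 4.11 and 6.01 CPM in class 9, against highest levels of 50.02 CPM in class 1 and 45.02 CPM in class 8. Irak3, an inhibitor of interleukin 1 and Toll-like receptor signalling, had 27.8 and 30.3 CPM against 215 CPM in class 6. Il18rap, a subunit of the interleukin 18 receptor, had 6.39 and 9.22 CPM against 80.4 CPM in class 2. Lcp1, which codes for the actin bundler L-plastin, had 30.6 and 28.9 CPM against 134 CPM in class 2. Mtmr7, a phosphoinositide phosphatase gene, had 30.6 and 37.3 CPM, the lowest level of the 14 classes, against 194 CPM in class 2. Smim31 and Fmo4 were the other 2. Of these 8, Casp12 was the only one lower also against the other fetal classes of the same library, by 1.06 ± 0.03 on the log2 scale (SD, n = 2). For the remaining 7 the class 9 level was not at least 2-fold below that of classes 4, 5 and 12 in both libraries.

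Within the fetal libraries, the simple keratin genes were the listed group with the largest difference from the mean of classes 4, 5 and 12. In all 4 genes class 9 was above the mean of classes 4, 5 and 12 in both libraries, and 3 of 4 met the 2-fold rule in both, with a median log2 difference of 1.31. Over all spans 0.15% were higher against this reference and the median was 0.04. Krt7 (chr15:101412403-101427806) had 43.8 and 41.7 CPM in class 9, against 13.5 and 26.0 CPM in class 5, 17.0 and 8.21 CPM in class 4, and 14.6 and 8.72 CPM in class 12. Its log2 difference was 1.51 ± 0.11 (SD, n = 2). Krt18 (chr15:102028216-102032026) had 52.9 and 55.9 CPM in class 9, a log2 difference of 1.27 ± 0.19. Classes 4 and 12 were at 11.9 to 17.0 CPM for Krt18, but class 5 was at 54.1 and 45.9 CPM, so that classes 9 and 5 overlapped. Krt19 (chr11:100140810-100145926) had 42.0 and 38.7 CPM, a log2 difference of 1.34 ± 0.06, and class 5 was at 24.8 and 30.6 CPM. Krt8 (chr15:101996711-102004342) had 144 and 156 CPM in class 9, above 85.6 and 97.4 CPM in class 5, 75.2 and 74.8 CPM in class 4, and 39.5 and 62.3 CPM in class 12. Its log2 differences were 1.16 and 1.00, and the second lay just under the threshold. Among the mostly adult classes, 3 and 7 had higher spans than class 9, with 192 and 240 CPM over Krt8 and 97.1 and 87.3 CPM over Krt19. Classes 1 and 8 had lower ones, with 64.6 and 47.7 CPM over Krt8 and 19.9 and 30.02 CPM over Krt19. The sum over the 4 keratins was highest in class 2, with 517 CPM, where class 9 had 282.5 and 292 CPM. Against all other classes 0 of the 4 keratins met the rule. Class 13, with 40 and 66 fetal nuclei, was not in the fetal reference. A Krt7 read was found in 5.0% and 13.6% of its thinned nuclei, that is, in 2 and 9 nuclei, against 4.68% and 4.60% in class 9. For Krt8 and Krt18 its shares were below those of class 9 in both libraries, and for Krt19 in fetal library 1 only.

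The other spans named by the rule had at least 2-fold more reads than the fetal reference as well. Anxa1, which codes for annexin A1, a phospholipid-binding protein, had 66.6 and 76.0 CPM in class 9, against 28.2 and 44.5 CPM in class 5, 26.9 CPM in both libraries of class 4, and 8.31 and 13.7 CPM in class 12. Plet1, a surface protein gene of epithelial progenitors, had 134 and 178 CPM in class 9, against 55.2 and 65.0 CPM in class 5, 80.8 and 132 CPM in class 4 and 22.9 and 28.1 CPM in class 12. Nupr1, a stress-response chromatin protein gene, had 35.6 and 36.7 CPM in class 9 and about the same, 33.8 and 35.7 CPM, in class 5, but 2.84 and 4.56 CPM in class 4. Il17c, a cytokine gene of epithelia, had 16.9 and 18.4 CPM in class 9 and 0 and 10.2 CPM in class 5. Lgals2, a galectin gene, had 21.9 and 19.8 CPM in class 9, the highest span level of the 14 classes, though not the highest at its promoter. The 12 named by the rule also included Gm14137, Catsper1, Mfsd6l, Prr15l, Gm33887 and Nutm1, with log2 differences from 1.38 to 2.15. Of the 25 higher spans, class 9 had the highest level of all classes in 5, and the highest other class was fetal in 2. These spans were chosen for being above the mean of classes 4, 5 and 12, which makes a high fetal class rare among them. The shares over all spans are not given, so nothing is read from these counts. Only 1 span, that of Hoxb1, was higher against both references, and it was picked out after its values were seen.

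Few spans were lower than in the other fetal classes in both libraries. Without fetal library 1 the balance was even, with 55 higher and 53 lower (50.9% higher, against 67.6% with both libraries). Gpr37l1, a G protein-coupled receptor gene of glia, had 10.0 and 14.4 CPM in class 9 against 28.2 and 40.8 CPM in class 5. Il17b, a cytokine gene, had 14.6 and 19.2 CPM against 56.7 and 52.9 CPM in class 4. Fads2b and Trat1 were the other 2 besides Casp12, with log2 differences of -1.30 and -1.14. Tagln, the smooth muscle gene transgelin, had 14.6 and 13.4 CPM against 66.7 and 40.1 CPM in class 4, a log2 difference of -1.09 ± 0.23 that fell short of 2-fold in fetal library 1.

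**Figure D2:**
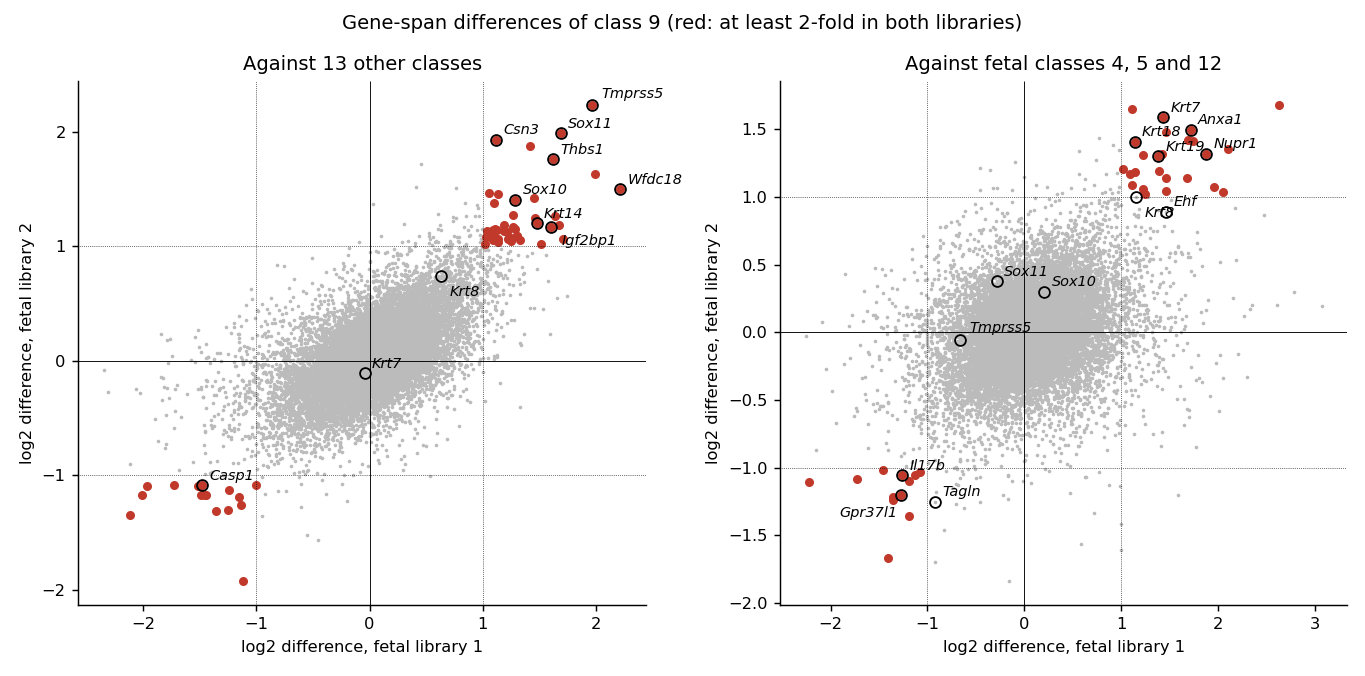
Each point is a gene span, placed by its log2 difference in fetal library 1 (x axis) and fetal library 2 (y axis), against 13 other classes at left and against classes 4, 5 and 12 of the same library at right. Red points are at least 2-fold in the same direction in both libraries (dotted lines); Sox11, Sox10 and Tmprss5 lie beyond the lines at left and within them at right, and Krt7 the other way round.

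For luminal progenitor genes, the summed level of class 9 was near that of class 5, above class 4 and below class 7. Of 9 luminal progenitor genes, 3 were higher than in the mean of all classes (Wfdc18, Csn3 and Aldh1a3) and 0 were lower, with a median log2 difference of 0.77. Over all spans 0.257% were higher and the median was 0.05, and Wfdc18 and Csn3 are also among the given markers of class 9. Aldh1a3, the retinaldehyde dehydrogenase of luminal progenitors, had 154 and 133 CPM in class 9, above every other class, of which class 4 came next with 87.3 CPM. Kit, the stem cell factor receptor, had 47.0 and 72.9 CPM in class 9 and 168 and 190 CPM in classes 3 and 7. Elf5, a transcription factor gene of alveolar differentiation, had 67.1 and 62.3 CPM, below classes 3 and 7 with 92.2 and 72.0 CPM. Ehf, another ETS factor gene, had 149 and 173 CPM in class 9, like class 5 with 153 and 186 CPM, and both were above class 4 with 53.9 and 53.8 CPM. The summed level of the list was 663 and 690 CPM in class 9, 683 CPM in class 5, 431 CPM in class 4 and 927 CPM in class 7. Within the fetal libraries 0 of the 9 met the rule, and 6 were above the reference in both, as were 5774 of all 16698 spans.

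Few genes of the fetal lists met the rule. Of all 16729 spans, 7073 were positive in both libraries against all classes and 0.257% were higher. All 7 oncofetal genes, which are active before birth and again in some tumours, were positive in both libraries, with 1 higher (Igf2bp1) and a median log2 difference of 0.73. Igf2bp3 had 165 and 170 CPM in class 9 and 57.0 and 59.8 CPM in classes 3 and 7. Hmga2, an architectural chromatin protein gene, had 340 and 287 CPM in class 9 and 235 and 216 CPM in those classes. Against the other fetal classes the median of the list was 0.06 and 0 of 7 met the rule. Of 8 embryonic mammary genes, such as Tbx3 and Lef1, 7 were positive in both libraries against all classes with a median of 0.33, and 0 met the rule. The 6 SoxE and SoxC genes were all positive in both libraries against all classes, with 2 higher (Sox10 and Sox11, both given as markers of class 9), and their median against the other fetal classes was 0.00. In the Notch, ErbB, AP-1 and nuclear factor I lists, of 9, 6, 8 and 4 genes, 0 met the rule against either reference. Erbb4, a receptor of the neuregulins, had 101 and 132 CPM in class 9, second lowest of the 14 classes. Nrg1, its ligand, had 412 and 529 CPM in class 9 and 1383 and 1272 CPM in class 4. Of 8 milk protein genes, 3 had enough reads, and Csn3 was the only higher one.

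Of the basal keratins, Krt14 was higher than the mean of all other classes, with 60.2 and 49.5 CPM and a log2 difference of 1.34 ± 0.19 (SD, n = 2). It was close to class 4 with 61.0 and 66.6 CPM. Class 9 ranked only 5 of the 14 classes for this span, and the mostly adult class 8 was highest. At the Krt14 promoter region, classes 1 and 8 had 70.3 and 65.2 CPM of promoter reads, above 52.0 and 42.0 CPM in class 9. Krt5, its partner, had 11.9 and 11.2 CPM in class 9, where class 4 had 28.4 and 36.5 CPM and class 1 had 89.4 CPM. Trp63, the gene of p63, had 122 and 117 CPM in class 9 and 189 and 229 CPM in class 4. Of the 9 basal markers, Krt14 was the only higher one and 0 were lower, where 0.257% of all spans were higher and 0.0956% lower, and 5 were below the mean of all classes in both libraries. The summed basal level was 476 and 454 CPM in class 9, 452 CPM in class 5, 751 CPM in class 4, and between 220 and 1435 CPM over the other classes.

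Markers of other cell types stayed within the range of the other classes. Over all spans 0.257% were higher and 0.0956% lower, so 0 calls in lists this short say little. Of 9 mature luminal markers 0 were higher and 0 lower, with a summed level of 445 and 520 CPM where the other classes ranged from 434 to 1436 CPM. Foxa1, a pioneer factor gene of mature luminal cells, had 71.2 and 79.0 CPM in class 9 and 223 CPM in class 13. Of 8 stromal markers 7 had enough reads and 0 were called; their sum was 230 and 248 CPM in class 9 and 860 CPM in class 6. The sums of class 9 were 141 and 162 CPM for 5 endothelial markers, 126 and 96.0 CPM for 6 immune markers, 528 and 530 CPM for 8 glial and melanocyte markers, 79.4 and 63.7 CPM for 4 adipocyte markers and 61.2 and 55.9 CPM for 5 keratinocyte markers, each within the range of the other classes and with 0 called. No marker of these lists was at 0 in both libraries. A barcode pair can hold more than 1 nucleus, no doublet caller was run, and the part of mixed nuclei in these levels was not tested.

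Over all spans, class 9 was most like class 5. Across 16729 spans the log2 levels of class 5 correlated with those of class 9 at r = 0.953 in fetal library 1 and 0.963 in fetal library 2, close to the r of 0.964 between both libraries of class 9. Class 12 followed with 0.925 and 0.947, class 4 with 0.913 and 0.944, and class 3 with 0.909 and 0.932. These points are genes of the same libraries and not replicates. Over 7834 distal regions with at least 500 reads classes 5, 12, 4 and 3 came in the same order with wider gaps, and the classes after them in another: r was 0.868 between both libraries of class 9, 0.753 and 0.780 with class 5, 0.531 and 0.540 with class 3, and 0.00 and -0.04 with class 2, which had 0.867 and 0.874 over gene spans. Span levels are not scaled by length, and these distal regions were chosen by their reads summed over the classes. The r values of spans and regions are thus not on the same footing, and the part of either choice was not tested.

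The deposited distal regions met the 2-fold rule more often than whole gene spans, but under a lower floor. Regions needed 20 reads, and spans needed 50 reads and a mean of 5 CPM, so the shares are not on the same footing. Between both libraries, the differences from all classes correlated at r = 0.511 over distal regions and 0.593 over spans. Levels of distal regions are CPM over reads in distal regions, each 1000 bases wide. Against the mean of all other classes 7601 of 143462 distal regions were at least 2-fold higher in both libraries (5.3%) and 2855 were lower (1.99%). Against classes 4, 5 and 12 of the same library 4938 of 97146 were higher (5.08%) and 1909 were lower (1.97%). Of the 19153 promoter regions tested against all classes, 698 were higher (3.64%) and 162 were lower (0.846%). Against the fetal classes 416 of 17556 were higher (2.37%) and 117 were lower (0.666%). The median log2 difference of all distal regions was not 0 but 0.12 against all classes and 0.20 against the fetal classes. The class 9 sums hold more reads than the sums they are compared with within a library, and the part of depth in these counts was not tested. Scaled to all reads of the nuclei in place of distal reads, 2313 distal regions were higher and 458 were lower, so that the higher share of the calls went from 72.7% to 83.5%. Without fetal library 2 it went the other way, with 20095 distal regions higher and 14254 lower (58.5% higher) and 1830 promoter regions higher and 1236 lower (59.7%, against 81.2%), and with 0.5 CPM added 24500 distal regions were higher and 8150 lower.

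In most regions higher in class 9, another fetal class came closest or was higher. The same shares over all tested regions are not given here, so nothing particular to these regions is read from them. Of the 7601 higher distal regions, class 9 had the highest level of all classes in 1776 (23.4%). In the whole set the highest of the other classes was class 5 in 2438 regions (32.1%), class 12 in 1351 (17.8%) and class 4 in 968 (12.7%). The median level over the 7601 regions was 12.99 CPM in class 9, 11.7 CPM in class 5, 8.96 CPM in class 12, 8.27 CPM in class 4 and 5.45 CPM in class 3. Class 2 had 0.986 CPM. Distances were taken where start sites were listed, which leaves out chromosome 18. The median distance from the nearest RefSeq start was 27470 bases for the regions higher than all classes, 26610 bases for the lower ones and 23440 bases for all tested. Within the fetal libraries it was 20870 bases for the higher regions and 31200 bases for the lower ones, against 22350 bases for all tested.

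Only 4 distal regions, of 16713 with enough class 9 reads, stood at least 2-fold above every other class, and no promoter region did. These were chosen for that gap, so it is described and not tested. The strongest by depth lies in Igf2bp2 (chr16:22152624-22153623), 10180 bases from the start of that gene, which codes for an RNA-binding protein of growth factor messages. It had 45.5 and 36.8 CPM in class 9, from 53 and 101 reads, and the next class was 13 with 17.99 CPM. A region in Stac2 (chr11:98045615-98046614) had 12.9 and 12.7 CPM against at most 3.63 CPM, in class 3, and no read in class 5. A region 21060 bases from Slc25a37 (chr14:69219787-69220786) had 24.9 and 15.3 CPM against 6.65 CPM in class 7. A region 25410 bases from Ropn1 (chr16:34623419-34624418) had 16.3 and 12.7 CPM against 5.38 CPM in class 12. The last 3 rest on 50 to 71 reads each. In the authors' Cicero scores, which rate over all nuclei whether 2 regions open together, the Igf2bp2 region had a score of 0.0939 with the Igf2bp2 promoter region, rank 3 among its 83 partners. For the other 3 regions no promoter among the partners scored above 0.0205.

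Promoter regions were also read at the starts of the listed genes. Of 68 such regions 7 were higher against all classes (3.64% of all promoter regions), 3 were lower (0.846%), and 7 were higher against the fetal classes (2.37%). Many of these genes were named because their spans, which hold the same reads, differed, so nothing is read from these counts. The Igf2bp3 promoter had 46.2 and 53.4 CPM of promoter reads in class 9, 37.1 CPM in class 5 and 5.70 CPM in class 3. The Prrg3 promoter had 52.0 and 61.4 CPM in class 9, against 40.2, 9.94 and 42.8 CPM in classes 5, 4 and 12 and 45.8 CPM in class 13. With that of Lgals2 it was higher against both references. The Il17c promoter had 39.0 and 32.7 CPM in class 9, 17.5 CPM in class 5 and no read in class 4. It was higher in classes 3 and 7, with 69.5 and 89.4 CPM, and in class 13, with 45.8 CPM. The Krt18 promoter had 52.0 and 46.7 CPM in class 9, against 28.9, 23.6 and 14.3 CPM in classes 5, 4 and 12 and 64.1 CPM in class 13. The Acta2 promoter, of smooth muscle actin, had 17.3 and 22.0 CPM in class 9, against 33.0 CPM in class 5, 103 CPM in class 4 and 80.9 CPM in class 12. The Krt18 promoter thus had more reads in class 9 than in classes 4 and 12, and the smooth muscle promoter fewer.

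The distal regions around Krt8 and Krt18, which lie next to each other on chromosome 15, were counted to see where the keratin difference lay. In the 50000 bases on either side of both genes, 11 of 34 tested distal regions were higher than in classes 4, 5 and 12 and 0 were lower, where 5.08% of all distal regions were higher. The loci were looked at because of their gene-span values, which share reads with nearby regions, so these counts are no independent support. Around Krt7 4 of 17 were higher, around Krt19 4 of 11, around Ehf 8 of 22 and around Anxa1 7 of 17. Around the markers the counts were 0 of 9 for Sox11, 0 of 5 for Tmprss5, 0 of 6 for Csn3, 2 of 25 for Sox10 and 1 of 5 for Wfdc18, and 1 region each was lower around Sox11 and Csn3. Among the other spans named as higher, the counts were 3 of 12 around Prr15l, 2 of 7 around Gm33887, 2 of 11 around Nutm1, 4 of 23 around Plet1, 1 of 6 each around Catsper1 and Mfsd6l, 1 of 11 around Nupr1, 0 of 16 around Lgals2, 0 of 6 around Gm14137 and 0 of 3 around Il17c. At chr15:101995237-101996236, 8606 bases from the Krt8 start, class 9 had 46.3 and 43.3 CPM from 54 and 119 reads, class 5 had 18.4 and 18.1 CPM, class 4 had 0 and 7.05 CPM and class 12 had 0 and 2.33 CPM. Classes 9 and 5 did not overlap there, and class 7 was higher still with 83.1 CPM. At chr15:102016954-102017953, between both genes and over the start of the transcript Gm41404, class 9 had 98.6 and 101 CPM and class 5 had 106 and 109 CPM, while class 4 had 24.5 and 12.5 CPM and class 12 had 35.1 and 22.1 CPM. Of the 22 regions of the locus with at least 50 class 9 reads, 9 were higher than in the fetal reference, and class 9 was above class 5 in both libraries in 12. A floor on class 9 reads favours class 9, and the same shares over all distal regions are not given, so nothing is read from these counts. Over all nuclei, Cicero scores of the 9 higher regions ran from 0.0653 to 0.397 with the Krt8 promoter region and from 0.0400 to 0.288 with that of Krt18. They passed 0.188, the 99th percentile of all 12719512 pairs, in 7 and 5 of 9 cases, where pairs over any distance enter that percentile.

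**Figure D3:**
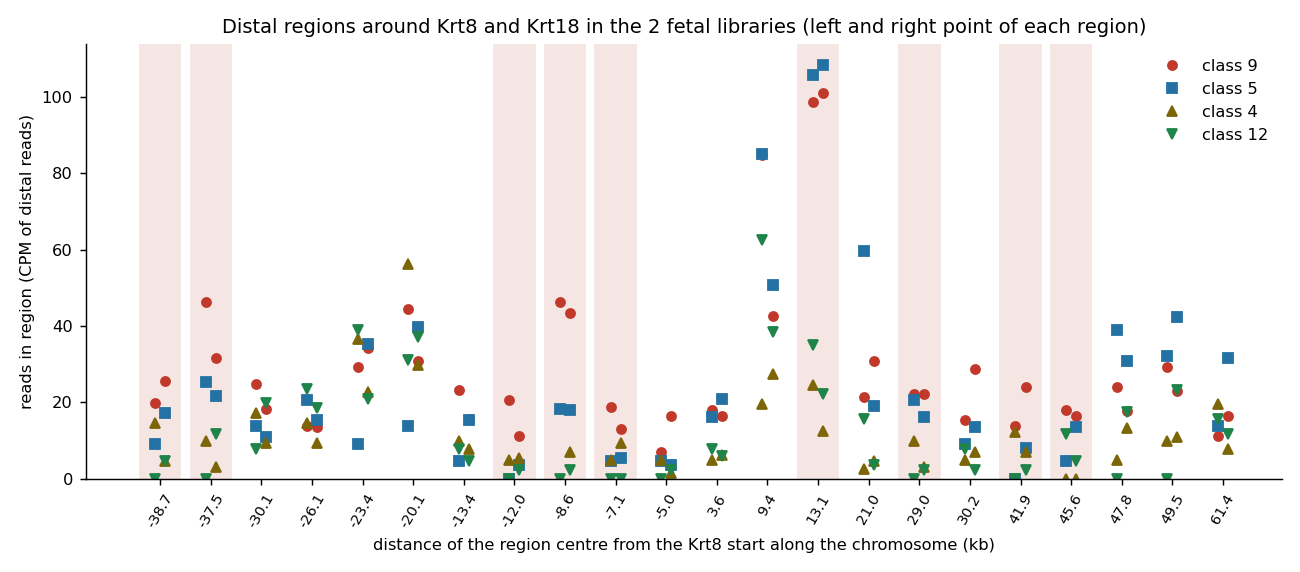
Reads in CPM of distal reads (y axis, from 0) in the 22 distal regions around Krt8 and Krt18 with at least 50 class 9 reads, in order along the chromosome and labelled by distance from the Krt8 start in kb (x axis, equal spacing), with fetal library 1 at left and 2 at right for each class. Shaded regions are at least 2-fold higher in class 9 than the mean of classes 4, 5 and 12 in both libraries; in the shaded region 13.1 kb from the start class 5 (blue) lies above class 9 (red).

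Motif scores gave a further account of the same nuclei. The authors' chromVAR table gives for each nucleus and motif a deviation score, which is above 0 where regions holding the motif have more reads than set by their background. Of 427 motifs 388 have distinct scores. Against the mean of the other classes, 1 motif was at least 1 score unit higher in both libraries (0.258%) and 7 were lower (1.8%). Within the fetal libraries 9 were higher (2.32%) and 2 were lower (0.515%).

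Nfix, of the nuclear factor I family, was the 1 higher motif, with mean scores of 1.43 and 1.97 in class 9. Class 5 was higher still, with 2.13 and 3.00, class 12 had 1.04 and 1.66, and class 4 had 0.19 and 0.63. SOX motifs came next: Sox9 had 0.88 and 1.07 and Sox4 had 0.86 and 1.03 in class 9. In both, classes 5 and 12 were higher, with 1.55 to 1.89 for Sox9 and 1.62 to 1.90 for Sox4, and classes 3 and 7 were lower, with 0.25 and -0.06 for Sox9. The Sox10 motif had 0.32 and 0.41 in class 9, and 0.75 and 0.84 in class 5. The Sox11 motif had 0.46 and 0.57 in class 9 and 0.95 and 1.14 in class 5. These 4 SOX motifs thus scored less in class 9 than in classes 5 and 12.

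The lower motifs were those of forkhead, NF-kappaB and p53-family factors. Foxa1 had -1.63 and -2.04 in class 9, -1.39 and -1.88 in class 5 and -2.52 and -2.77 in class 4, whereas class 2 had 3.93. Nfkb1 had -1.19 and -1.36 in class 9 and 1.04 and 1.59 in classes 3 and 7. Trp63 had -0.78 and -0.71 in class 9, like -0.61 and -0.77 in class 5, whereas class 4 had 2.89 and 2.81 and class 12 had 2.23 and 2.53. Trp63 and Trp73, which have similar motifs, were also the 2 lower motifs within the fetal libraries. On this axis classes 9 and 5 stood together and apart from classes 4 and 12.

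AP-1 motifs stood far apart in class 9 and in class 5, its closest class by gene spans. Fos, a subunit of the AP-1 dimer, had mean scores of -1.09 and -0.97 in class 9, -5.45 and -6.39 in class 5, -3.76 and -4.79 in class 12, and 0.02 and -0.03 in class 4. The difference of class 9 from the mean of the 3 fetal classes was 1.98 and 2.77. Smarcc1, Bach1, Bach2, Jund, Fosb, Junb and Fosl1, whose motifs resemble that of Fos, were higher by the same rule, and motifs this alike are not independent of each other. The last of the 9 was a column shared by Id3 and Id4, with 0.41 and 0.36 in class 9 and -1.15 and -1.41 in class 4. Over its own gene span, Fos had 160 and 137 CPM in class 9 and 233 and 249 CPM in class 5. Of 8 AP-1 genes 0 were higher than the fetal reference, where 0.15% of all spans were. Elf5 and Ehf, motifs of ETS factors, had 0.19 and 0.31 and 0.13 and 0.20 in class 9, as in class 5, against 1.61 and 1.74 for Elf5 in classes 3 and 7 and -0.96 and -1.03 in class 4. Esr1, the oestrogen receptor motif, had -0.26 and -0.40, and Ctcf had 0.40 and 0.08.

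**Figure D4:**
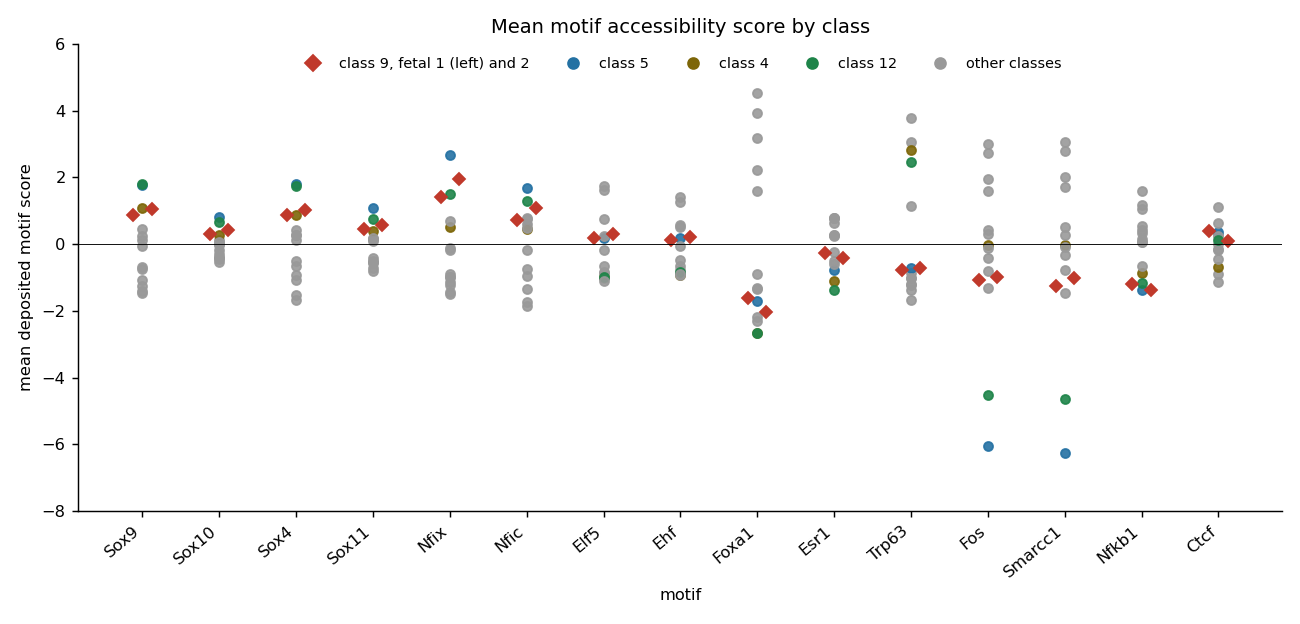
Mean deposited motif score (y axis) of 15 motifs (x axis), with class 9 as red diamonds (fetal library 1 left, 2 right), classes 5, 4 and 12 in colour and the other 10 classes in grey. Class 9 lies near -1 for Fos and Smarcc1 while class 5 lies near -6, and for Trp63 classes 9 and 5 lie together below classes 4 and 12.

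Class 9 nuclei varied widely around these means. The Fos score had an SD over nuclei of 2.68 in fetal library 1 and 3.00 in fetal library 2, where 63.9% and 58.7% of nuclei were below 0. In class 5 the shares below 0 were 98.5% and 98.8%. The 5th and 95th percentiles of class 9 were -5.83 and 2.66 in fetal library 1 and -6.43 and 3.45 in fetal library 2, so that the range of class 9 took in the medians of class 5, -5.25 and -6.14. The Sox9 score had quartiles of 0.07 and 1.64 in fetal library 1 and 0.19 and 1.84 in fetal library 2. Foxa1 was below 0 in 90.7% and 93.9% of class 9 nuclei. Scores move with depth: over class 9 nuclei the correlation with the log of the read number was -0.46 and -0.48 for Foxa1, 0.34 and 0.31 for Nfix and -0.21 and -0.21 for Fos. For Fos it was -0.64 and -0.71 in class 5, -0.35 and -0.65 in class 12 and -0.09 and 0.03 in class 4. The part of depth in the Fos difference between classes was not tested. Across class 9 nuclei the Sox10 and Sox11 scores correlated at 0.68 and 0.67, and the Fos and Sox4 scores at -0.37 and -0.39. Nuclei of 1 library share their preparation, and the motifs of a family share sequence, so these are descriptions.

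**Figure D5:**
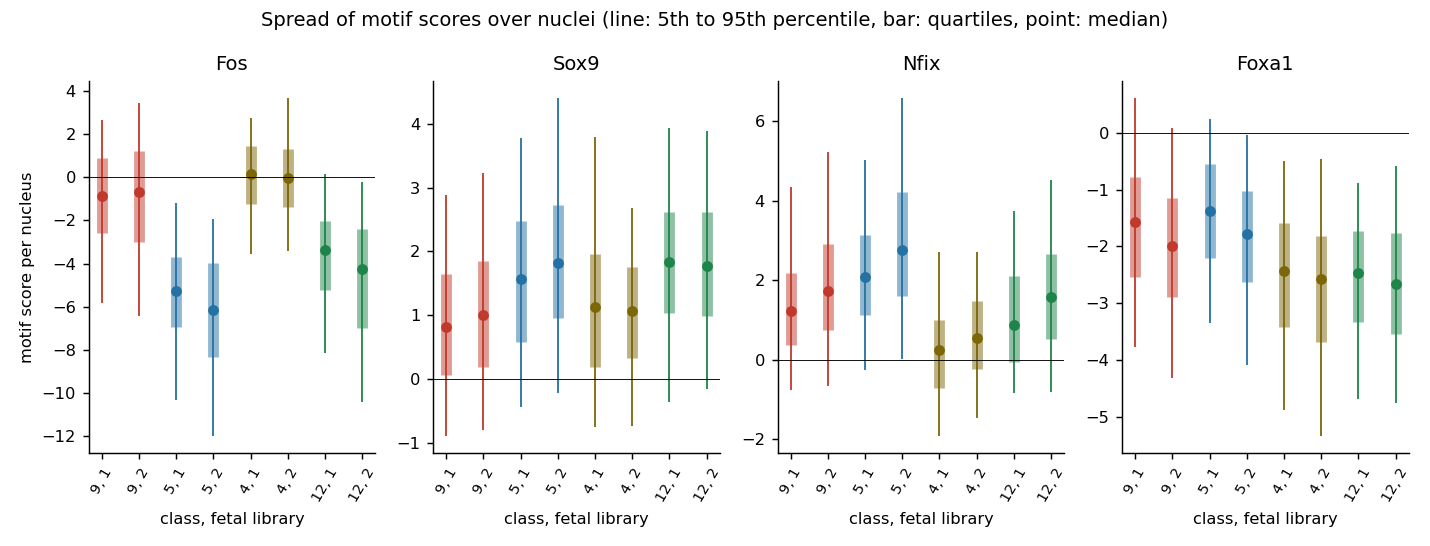
Motif scores over nuclei (y axis) for Fos, Sox9, Nfix and Foxa1 in classes 9, 5, 4 and 12 of fetal libraries 1 and 2 (x axis), with the median as a point, the quartiles as a bar and the 5th to 95th percentile as a line. The Fos score of class 9 spans -5.83 to 2.66 in fetal library 1 between those percentiles, which takes in the medians of class 5 (-5.25) and class 4 (0.18) in that library.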

How the data were processed

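Per the labels' protocols, cells were thawed before nuclei were made, while the series text calls them fresh. Tagmentation used 2000 nuclei a well, with 16 wells for a fetal and 32 for an adult replicate. The pooled nuclei then went into 768 wells, 20 to a well, where they got a second barcode. The submitters' processing notes name Bowtie2, MACS2, bedtools and mm10, without roles. The deposited table gives chromVAR deviation scores, a class and a count of reads for each nucleus, and a second deposited table gives Cicero scores of region pairs. The count of reads per nucleus that the authors deposited equalled the reads listed under its barcode in all 7846 nuclei. Another deposited table, of Cicero gene scores, has 7846 columns that name no sample and were not used. Reads were used as listed and counted in every region or span they overlapped. Spans were tested with a mean of at least 5 CPM and 50 reads, regions with 20 reads. The reference classes had at least 50 nuclei each. No p-value was computed, because classes and values come from the same reads. Within 2 libraries, n is 2, and the spread between them may be technical. The spans named beyond the lists were the 12 with the largest and smallest mean differences that met the rule with at least 100 class 9 reads (expected reads for the lower ones); distal regions had at least 50 reads, 15 in each library. For the fetal reference the same rule was used. Motifs were the 8 at each end. Members and lists were chosen with earlier results of these data known, and the comparisons of regions and motifs with classes 4, 5 and 12 and the loci around genes were added after the values were seen. Coordinates follow mm10, and gene names, spans and promoter sequences come from RefSeq (GRCm38.p6). The counting of differences was tested on simulated data. Alternatives used edgeR 4.0.16 TMM factors in R 4.3.3. Counting and plotting used Python 3.11.15 with matplotlib 3.10.9, scipy 1.17.1, pandas 2.3.3 and numpy 2.4.6.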

Additional observations from a re-analysis of the deposited data

How the results depend on the processing

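No paired test was made, because no result comes from a test. Class 9 was set against the other frequent fetal classes within each library, as a description. Of the 57 differences of single genes and motifs recomputed, none changed sign under the alternatives run for it; single regions and promoter windows were not recomputed. With 0.5 CPM added in place of 2 CPM, spans higher and lower than all other classes numbered 100 and 25, spans higher and lower than the other fetal classes 43 and 19, distal regions 24500 and 8150, and higher promoter regions 1681. With a single library, which drops the demand that both pass, the counts of spans against all classes were 101 to 172 higher and 32 to 227 lower, of spans against fetal classes 55 to 421 higher and 53 to 244 lower, of distal regions 16529 to 20095 higher and 5561 to 14254 lower, of promoter regions 1473 to 1830 higher and 410 to 1236 lower, and of motifs 1 to 4 higher and 7 to 11 lower. With the other classes summed to 1 level, 10 spans were higher and 57 lower, so the share of higher calls was 14.9% against 72.9%, and the median of all spans went from 0.05 to -0.0044. Without fetal replicate 2, 172 spans were higher and 227 lower, a share of 43.1%. With distal levels scaled to all reads, 2313 were higher and 458 lower. With only nuclei at or above the median depth of their library, the share of class 9 was 45.1%, and 3 motifs were higher and 12 lower. The other 19 alternatives of these counts stayed within 1.5 times. Of the alternatives of single genes and motifs, 260 stayed within the spread of the libraries and 52 did not. The minimum for a region was 20 reads over the nuclei compared, so that many regions rest on few class 9 reads; no detection limit was estimated.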

Other observations

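In the adult libraries 19 nuclei carried class 9, 9 in library 1 and 10 in library 2. They held 101939 counted reads over gene spans, and the median of all reads was 5383 per nucleus. Over Sox11, Tmprss5 and Wfdc18 they had 0 reads, over Sox10 12 reads and over Csn3 6 reads. Over the keratins they had 16 reads at Krt8, 6 each at Krt7 and Krt19, and 3 at Krt18, and Kit had 15 reads. Their mean Fos motif score was -3.76, from -9.02 to 2.52 over the 19 nuclei, where the fetal nuclei of class 9 had -1.09 and -0.97. Their mean Nfix score was 0.53, from -0.87 to 2.82, and their mean Foxa1 score was -0.49, from -2.71 to 1.62. No test was made of these values.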
